A study of Mus musculus with 12 samples.

Results

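The lysosome genes described here are the 112 genes to which the authors' deposited tables attach the pathway term Lysosome, without the 1 such gene whose symbol begins with Abc, out of 22935 genes listed. They were measured by mRNA sequencing in BV2 cells, a mouse microglial cell line that is a single transformed line and stands in for primary microglia only in part. The libraries are 3 of cells given oxy-Hb (10 uM), 3 of cells given oxy-Hb (10 uM) with the complement fragment C3a, labelled 20 ug/ul, and 3 of cells given oxy-Hb (10 uM) with C3aRA (50 uM). Oxy-Hb, the haemoglobin that blood releases after a bleed, was thus present in every library used. The series is titled as a study of the C3/C3aR pathway in microglia after subarachnoid haemorrhage, and the comparisons ask how added C3a and added C3aRA alter the oxy-Hb state. The 3 PBS samples were not analysed here. The labels do not say whether replicates came from separate cultures, so p-values cover the spread of these libraries only, and that spread may be technical.

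Lysosomes are acidic organelles in which microglia and macrophages break down what they take up, including red cell debris and myelin. Soluble hydrolases are tagged with mannose 6-phosphate, carried from the Golgi by receptors with clathrin adaptors, and activated at the low pH that the V-ATPase proton pump maintains. Many lysosomal genes share a promoter element bound by TFEB, TFE3 and MITF, basic helix-loop-helix leucine zipper factors.

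By role the 112 genes were 14 cathepsins, 3 other proteases, 17 glycosidases, 8 sulfatases and their activator, 8 lipases, phosphatases and related hydrolases, 4 activator and binding proteins, 18 membrane proteins, 9 V-ATPase subunits, 30 sorting and enzyme-targeting proteins, and Entpd4b, which was placed in none of these. Of these, 107 had enough counts to be tested, among 14146 genes tested in all. The 5 that were not tested, Ctsg, Ctsw, Acp5, Ap3b2 and Entpd4b, did not exceed 1.16 CPM (counts per 1000000 counts of a library, TMM-scaled) in any library. Ctsg had 0 counts in all 9.

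Promoter sequences from RefSeq (GRCm38.p6) were matched for 88 of the 112 genes, as windows from 250 bases before to 50 after the start site. The 8-letter core TCACGTGA, which reads the same on both strands, is the centre of the element that TFEB-type factors bind. It was present in the windows of 10 members (11.4%), against 1.12% of the 27025 genes with a window and 2.21% of the 9609 matched genes that were tested here. The 10 were Mcoln1, Ctsa, Ctsd, Cd164, Cln3, Sumf1, Atp6v0d1, Gla, Gnptg and Igf2r. The shorter letters CACGTG, which lie inside that core, were present in 24 members (27.3%) against 8.09% and 11.8%. The following 30-base stretches, each written 5′ to 3′ on the gene's strand with the core in capitals, belong to 7 members whose values are described below, and a match is a description of letters and not a bound site.
Mcoln1 (chr8:3500462-3500491, + strand): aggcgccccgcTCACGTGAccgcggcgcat
Ctsa (chr2:164833749-164833778, + strand): tgagcaaactgTCACGTGAtgcagatgctc
Ctsd (chr7:142387908-142387937, - strand): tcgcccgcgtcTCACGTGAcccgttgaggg
Cd164 (chr10:41519401-41519430, + strand): cgccgggctgcTCACGTGAccggcgcgcgc
Cln3 (chr7:126583340-126583369, - strand): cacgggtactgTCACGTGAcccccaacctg
Sumf1 (chr6:108185577-108185606, - strand): agcaccacaggTCACGTGAtctccatgggt
Atp6v0d1 (chr8:105566050-105566079, - strand): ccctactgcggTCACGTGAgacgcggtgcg
Relative to the start site, the first base of the core in the 7 stretches shown lay nearest in Atp6v0d1, at -4, and farthest in Cln3, at -122. The other 5 lay between these. Ctsa, Gla and Igf2r held 2 copies each, and the Ctsa copy not shown began past the start site, at 4. Gga3, the other gene that passed the test below, had a matched window without these 8 letters.

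The libraries held 12934794 to 20479002 counts. Lysosome genes took 1.93% ± 0.0794 of all counts with oxy-Hb, 2.14% ± 0.229 with C3a and 2.05% ± 0.00577 with C3aRA (SD, n = 3 each). The 3 shares with C3a were 1.99%, 2.40% and 2.02%, so replicate 2 stood above the other two, which lay near the oxy-Hb range of 1.84% to 1.99%. C3a replicate 2 also stood apart over all genes, with a first principal component of 76.3 against -23.8 to 10.8 in the other 8 libraries. It was the highest of the 9 libraries for 50 of the 107 tested members (46.7%), against 26.7% of all tested genes, and values below are also given without it where leaving it out moved them most. Oxy-Hb replicate 3 was the lowest library for 28 members (26.2%), against 10.3% of all tested genes.

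The label microglia was checked against markers. Cd68, the endolysosomal sialomucin by which phagocytes are recognised, ran from 780 to 1070 CPM, and the sum of 12 microglia and macrophage genes from 2100 to 2940 CPM, highest in C3a replicate 2. The homeostatic microglia markers Tmem119 and P2ry12 were near 0, at no more than 2.33 and 3.76 CPM, and Aif1 at no more than 2.90 CPM. Of this list Itgam, an integrin chain, was higher with C3a (41.6, 37.3 and 44.3 CPM against 51.9, 91.1 and 55.6 CPM, edgeR adjusted p = 0.0498). Trem2, a phagocyte receptor, was higher with C3a than with C3aRA (159, 223 and 178 CPM against 127, 140 and 147 CPM, edgeR adjusted p = 0.0495). Both genes were highest in C3a replicate 2, and both adjusted p-values lay just under the threshold of 0.05. The part of either gene in the results was not tested. Listed astrocyte and neuron markers did not exceed 0.833 CPM in sum, red cell markers 1.62 CPM, endothelial or fibroblast markers 1.66 CPM and oligodendrocyte markers 11.6 CPM. These sums rest on only 1 or 2 genes each, as the other markers were not among the genes the authors listed.

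Lysosome genes were expressed above most genes. The median member stood at 65.6 CPM over the 9 libraries, against 22.6 CPM for all tested genes, and 33 of the 107 were in the top 10% by CPM. Transcript length (median 3014 against 2970 bases) and GC content (50.8% against 49.1%) were close to those of all tested genes. Ctsb alone ranked 14 among tested genes by mean CPM, and the 5 members with the most counts gave 35.0% of the summed CPM of the members with oxy-Hb. Of the 112, 76 carried another pathway term as well, most often Metabolic pathways (33) and Phagosome (14).

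Levels of different genes were compared per kilobase of the longest annotated transcript of each gene, with oxy-Hb alone. That length was 1230 bases for Cd68 and 6168 for Ctsl, which had 848 and 1480 CPM. The order and the medians below therefore depend on that length, and which transcripts the cells made was not tested. On that scale Cd68 was highest, at 690 CPM per kb, followed by the carboxypeptidase Ctsz at 578 and the cysteine protease Ctsb at 540. Legumain (Lgmn), the asparaginyl endopeptidase that processes cathepsins, followed at 360, and Ctss, a cathepsin of antigen processing, at 295. The cholesterol carrier Npc2 had 242, Ctsl 240, Lamp1 225 and the saposin precursor Psap 206 CPM per kb. Neighbours in this order such as Npc2 and Ctsl lay closer together than the spread between libraries. By role the median was 118 CPM per kb for the 4 activator and binding proteins, 115 for cathepsins, 44.4 for V-ATPase subunits, 22.0 for membrane proteins, 20.5 for glycosidases and 12.7 for sorting proteins. The cathepsins fell into 8 genes at 83.6 CPM per kb or more and 4 (Ctse, Ctsf, Ctso and Ctsh) at 5.76 or less, beside the untested Ctsg and Ctsw.

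**Figure D1:**
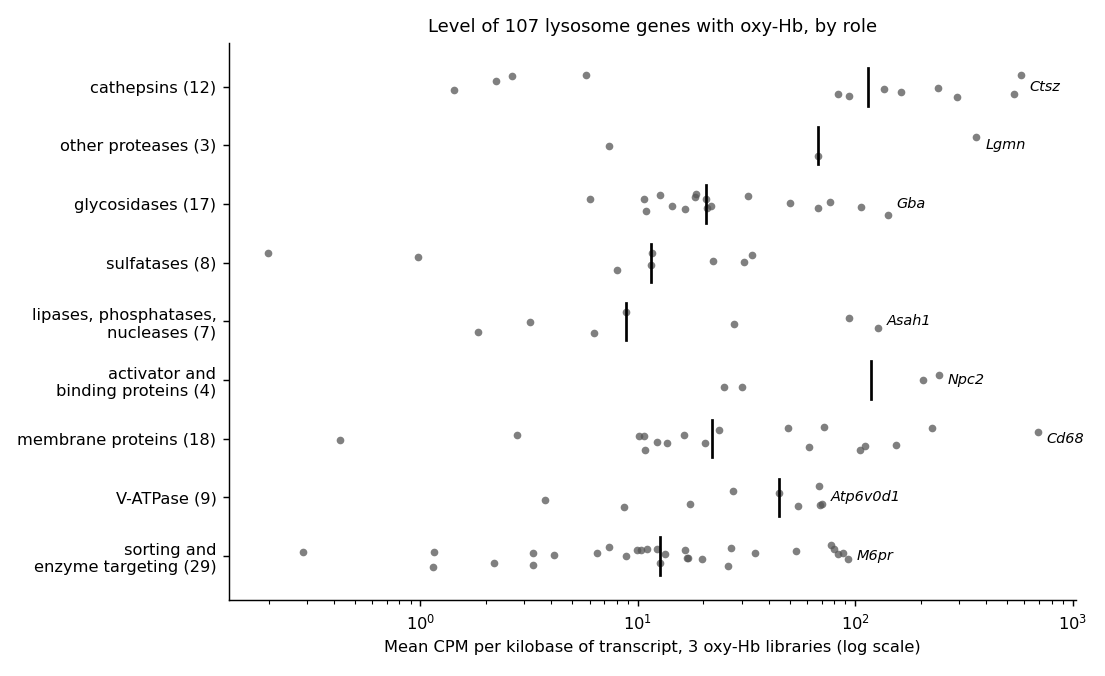
Mean level of each tested lysosome gene with oxy-Hb, in CPM per kilobase of its longest annotated transcript on a log axis, grouped by role. Each point is 1 gene, the black line is the median of the role and the named gene is its highest member. None is named for sulfatases. Cathepsins and activator proteins have the highest medians, 115 and 118, and Cd68 is the highest single gene at 690.

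Added C3a was followed by lower mRNA of Mcoln1 and Gga3, and these were the only 2 of 107 tested members with a Benjamini-Hochberg adjusted p below 0.05 (edgeR quasi-likelihood test over all tested genes). In this comparison 3.94% of all tested genes were called, 3.04% lower and 0.905% higher, against 1.87% of the members, so the members' share lay below the background. No member was called higher. At an unadjusted p below 0.05 the count was 35 members (32.7%), against 24.1% of all tested genes.

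Mcoln1 (ENSMUSG00000004567, chr8:3500457-3515232, + strand) encodes TRPML1, the cation channel through which lysosomes release calcium. Its level was 74.5, 72.5 and 58.2 CPM with oxy-Hb, 36.7, 27.2 and 35.2 CPM with C3a, and 69.0, 56.3 and 61.2 CPM with C3aRA. All 3 libraries with C3a were below all other 6, while oxy-Hb and C3aRA libraries overlapped each other. The log2 fold change against oxy-Hb was -1.05 ± 0.14 (SE, edgeR adjusted p = 0.00256), from 68.4 ± 8.89 to 33.0 ± 5.11 CPM (SD, n = 3). Against C3aRA it was -0.91 ± 0.14 (edgeR adjusted p = 0.00602). With C3aRA against oxy-Hb the log2 fold change of Mcoln1 was -0.14 ± 0.14 (edgeR adjusted p = 0.837). Both calls with C3a held in each of 9 fits that left out 1 library and in each of 10 other analyses, with adjusted p up to 0.0319 and 0.0481.

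No annotated gene overlaps Mcoln1 in GENCODE M21. The next gene on the same strand, Pnpla6, a phospholipase gene that is no lysosome member, begins 151 bases beyond its end. Pnpla6 had 86.9, 74.8 and 63.1 CPM with oxy-Hb, 34.5, 33.3 and 44.3 CPM with C3a, and 70.1, 61.8 and 55.6 CPM with C3aRA, so its 3 C3a libraries were likewise the lowest. It fell by 1.0 on the log2 scale against oxy-Hb (edgeR adjusted p = 0.00337) and by 0.74 against C3aRA (edgeR adjusted p = 0.0154). Whether any reads were counted to the wrong one of these neighbours was not tested.

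Gga3 (ENSMUSG00000020740, chr11:115584255-115604051, - strand) encodes an adaptor that sorts mannose 6-phosphate receptors at the Golgi. It had 39.0, 33.6 and 34.7 CPM with oxy-Hb, 19.2, 18.3 and 21.3 CPM with C3a, and 29.9, 29.1 and 28.8 CPM with C3aRA. The 3 groups did not overlap, with oxy-Hb highest, C3aRA between and C3a lowest. Against oxy-Hb the log2 fold change with C3a was -0.87 ± 0.12 (SE, edgeR adjusted p = 0.00268), from 35.7 ± 2.85 to 19.6 ± 1.54 CPM (SD, n = 3), and it was called in all 9 leave-one-out fits and all 10 other analyses. Against C3aRA it was -0.58 ± 0.12 (edgeR adjusted p = 0.0188), a call lost without any 1 of the 3 C3aRA libraries (adjusted p up to 0.0942) and when the 2 groups were fitted alone (edgeR adjusted p = 0.0649). With C3aRA against oxy-Hb it was -0.29 ± 0.12 (edgeR adjusted p = 0.582). Gga3 shares 127 bases with Mrps7 on the opposite strand, and the strand setting of the counts is not given. Mrps7 had 57.2 to 61.3 CPM with oxy-Hb and 65.6 to 89.7 CPM with C3a, in the other direction from Gga3 (log2 fold change 0.32, edgeR adjusted p = 0.199). Of the other members of this adaptor family, Gga1 had a log2 fold change of -0.40 ± 0.13 with C3a (edgeR adjusted p = 0.0907), and Gga2 of -0.09 ± 0.13 (edgeR adjusted p = 0.709). With per-library corrections for transcript length and GC content Gga1 was at -0.10 (edgeR adjusted p = 0.577), and at -0.15 when C3a replicate 2 was left out as well.

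**Figure D2:**
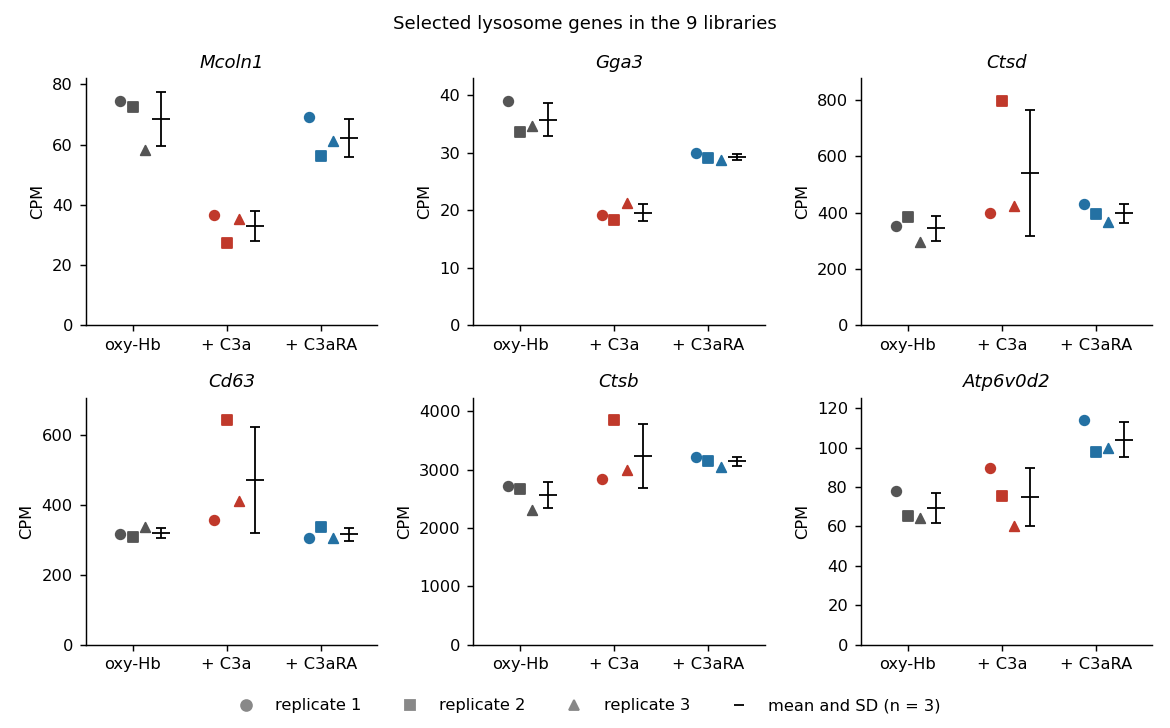
CPM of 6 lysosome genes in each of the 9 libraries, with 1 point per library (symbol by replicate number) and the mean with SD (n = 3) as a black bar; each axis starts at 0. Mcoln1 and Gga3 are lowest in all 3 C3a libraries, Ctsd and Cd63 are highest in C3a replicate 2 alone, and Ctsb and Atp6v0d2 are higher in all 3 C3aRA libraries than in any oxy-Hb library.

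The other members leaned towards higher values with C3a, by less than the test could call. The median log2 fold change over the 107 was 0.14 against 0.00 for all tested genes, and 68 members had positive and 39 negative values (63.6% positive against 50.2%). In 33 members (30.8%) every C3a library was above every oxy-Hb library, against 13.2% of all tested genes, and in 8 members (7.48%) every one was below, against 14.6%. Without C3a replicate 2 the median was 0.08, against -0.01 for all tested genes. In bulk samples a different number of expressing cells and a different amount of mRNA per cell cannot be told apart.

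The cathepsins, the main lysosomal proteases, had a median log2 fold change of 0.33 with C3a over the 12 tested, with 10 positive and none called. Their summed level was 6820, 6740 and 6170 CPM with oxy-Hb and 7230, 10300 and 7530 CPM with C3a. Each C3a library was above each oxy-Hb library, and replicate 2 was well above the other two. Without that library the cathepsins' median was 0.15, and with C3aRA their sum was 7720, 7520 and 7410 CPM.

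Ctsd, the aspartic protease, had 353, 385 and 296 CPM with oxy-Hb and 399, 797 and 424 CPM with C3a. The groups did not overlap, but C3a replicate 2 was far above the other two C3a libraries. The log2 fold change of Ctsd was 0.65 ± 0.22 (edgeR adjusted p = 0.110), and 0.25 ± 0.09 (edgeR adjusted p = 0.0677) without replicate 2. Ctsk, a collagen-cleaving cathepsin, had 126, 117 and 137 CPM with oxy-Hb and 159, 267 and 155 CPM with C3a, a log2 fold change of 0.62 ± 0.18 (edgeR adjusted p = 0.0691). Without replicate 2 its log2 fold change was smaller, 0.31 ± 0.09, and passed the test (edgeR adjusted p = 0.0221), as the spread of the fit was smaller. Ctsb, Ctsl, Ctss and Ctsz had log2 fold changes of 0.33, 0.36, 0.35 and 0.25, which were 0.18, 0.10, 0.22 and 0.06 without replicate 2. Ctsa, the protective protein of beta-galactosidase, had 0.32 ± 0.10 (edgeR adjusted p = 0.0870). Without replicate 2 it was called, at 0.27 ± 0.08 (edgeR adjusted p = 0.0228). Only the low Ctse and Ctsf had negative values, -0.50 and -0.16. Ctsb and Ctsa, like Idua below, overlap annotated genes on the opposite strand (Fdft1, Pltp and Dgkq, at means of 94.0, 0.216 and 7.6 CPM). Only reads from the shared bases of such pairs cannot be told apart without a strand setting. Among overlaps on the same strand, Ctsd shares 6757 bases with Gm49369, and Glb1 below shares 6172 with Tmppe. How reads of these pairs were counted was not tested.

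Among the 3 other proteases all values were positive with C3a and none was called. Lgmn had 768, 751 and 633 CPM with oxy-Hb and 823, 1130 and 814 CPM with C3a, without overlap, for a log2 fold change of 0.36 ± 0.13 (edgeR adjusted p = 0.111), or 0.19 ± 0.08 without replicate 2 (edgeR adjusted p = 0.122). Tpp1, a tripeptidyl peptidase, had 259, 248 and 239 CPM with oxy-Hb and 286, 290 and 295 CPM with C3a. Here the 3 C3a libraries lay close together and above oxy-Hb, with a log2 fold change of 0.23 ± 0.09 (edgeR adjusted p = 0.144), which was called without replicate 2 (0.22 ± 0.07, edgeR adjusted p = 0.0480).

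Glycosidases, which trim sugars from glycolipids and glycoproteins, had a median log2 fold change of 0.14 with C3a, with 10 positive, 7 negative and none called, and a median of 0.03 without replicate 2. Gusb, beta-glucuronidase, had 206, 212 and 200 CPM with oxy-Hb and 227, 270 and 265 CPM with C3a. The groups did not overlap, at a log2 fold change of 0.30 ± 0.10 (edgeR adjusted p = 0.0924), and it was called without replicate 2 (0.25 ± 0.08, edgeR adjusted p = 0.0375). Glb1, beta-galactosidase, had 0.39 ± 0.13 (edgeR adjusted p = 0.0886). In the other direction Idua, alpha-L-iduronidase, had 24.4, 22.3 and 17.2 CPM with oxy-Hb and 11.8, 17.4 and 14.6 CPM with C3a. The highest C3a library of Idua reached just above the lowest oxy-Hb library, and the log2 fold change was -0.54 ± 0.17 (edgeR adjusted p = 0.0889). Without replicate 2 Idua was called lower, at -0.69 ± 0.17 (edgeR adjusted p = 0.00705).

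The sulfatases had a median of -0.02, and Sumf1, the enzyme that activates them, 0.35 ± 0.11 (edgeR adjusted p = 0.0767). The 7 tested lipases, phosphatases and related hydrolases had a median of 0.14, with the acid lipase Lipa at 0.35. Without replicate 2 that median was 0.07 and Lipa was at 0.18. Of the activator and binding proteins, Psap, Npc2 and Gm2a had 0.36, 0.25 and 0.23, and none of the 4 was called. Without replicate 2 these were 0.12, 0.11 and 0.19, and the median of the 4 went from 0.29 to 0.16.

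Membrane proteins had a median of 0.08, with 10 positive and 8 negative values, Mcoln1 among the latter, and the median was -0.01 without replicate 2. Cd63, a tetraspanin of late endosomes, had 317, 308 and 336 CPM with oxy-Hb, 356, 643 and 412 CPM with C3a and 306, 338 and 305 CPM with C3aRA. All C3a libraries were above the other 6, most of all replicate 2, and the log2 fold change of Cd63 against oxy-Hb was 0.55 ± 0.17 (edgeR adjusted p = 0.0815), or 0.25 ± 0.08 without replicate 2 (edgeR adjusted p = 0.0323). Cd63 has an annotated pseudogene copy, and reads of the pair could be split. Cd164, a sialomucin, had 298, 320 and 306 CPM with oxy-Hb and 342, 377 and 430 CPM with C3a. These did not overlap, at 0.32 ± 0.10 (edgeR adjusted p = 0.0954), and Cd164 was called without replicate 2, at 0.32 ± 0.08 (edgeR adjusted p = 0.0105). Laptm5, a transmembrane protein of blood cell lysosomes, had 139, 126 and 118 CPM with oxy-Hb and 112, 95.5 and 89.9 CPM with C3a, lower without overlap, at a log2 fold change of -0.37 ± 0.11 (edgeR adjusted p = 0.0764). Cd68, Lamp1 and Lamp2, abundant proteins of the lysosomal membrane, had 0.20, 0.23 and 0.23, and without replicate 2 they had 0.13, 0.05 and 0.11.

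The V-ATPase members, which are mostly V0 subunits, had a median of 0.12, with 5 positive, 4 negative and none called. Without replicate 2 the median of the V-ATPase members was -0.15. With the length and GC correction it was 0.06, against 0.10 for all tested genes. With that correction and without replicate 2 it was 0.04, against 0.06 for all tested genes. The sign of the V-ATPase median therefore depended on that library and on the correction, which also moved the median of all genes upward. Atp6v0d1 had 120, 116 and 107 CPM with oxy-Hb and 125, 189 and 135 CPM with C3a, without overlap (log2 fold change 0.39, edgeR adjusted p = 0.110), and 0.18 without replicate 2 (edgeR adjusted p = 0.188). Tcirg1, the a3 subunit, had -0.25. Sorting proteins had a median of 0.05 with Gga3 as the 1 call, and the mannose 6-phosphate receptor gene M6pr, which has a pseudogene copy, had 0.27, or 0.17 without replicate 2.

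**Figure D3:**
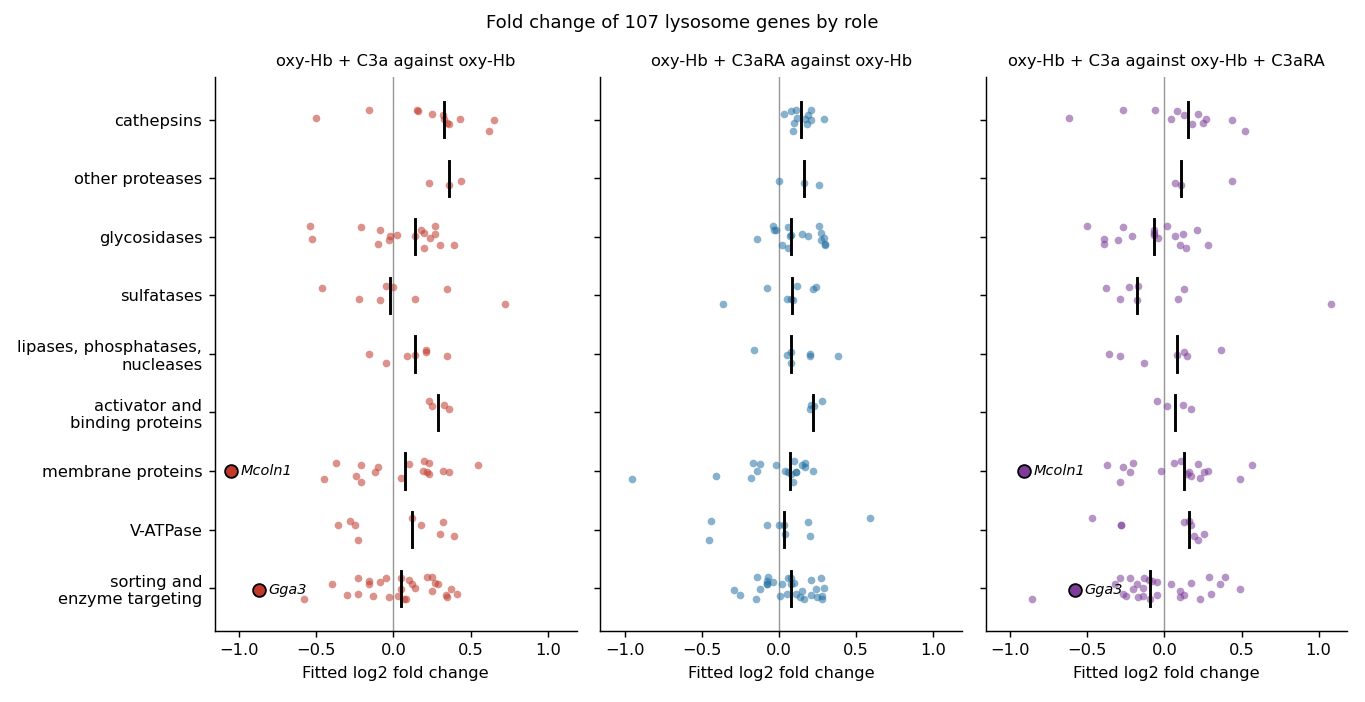
Fitted log2 fold change of each of 107 lysosome genes by role in the 3 comparisons, with 1 point per gene; black lines are medians, and large outlined points have an adjusted p below 0.05. Only Mcoln1 and Gga3 are called, in the 2 comparisons of C3a, and the medians of most roles lie between 0 and 0.36 against oxy-Hb.

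**Figure D4:**
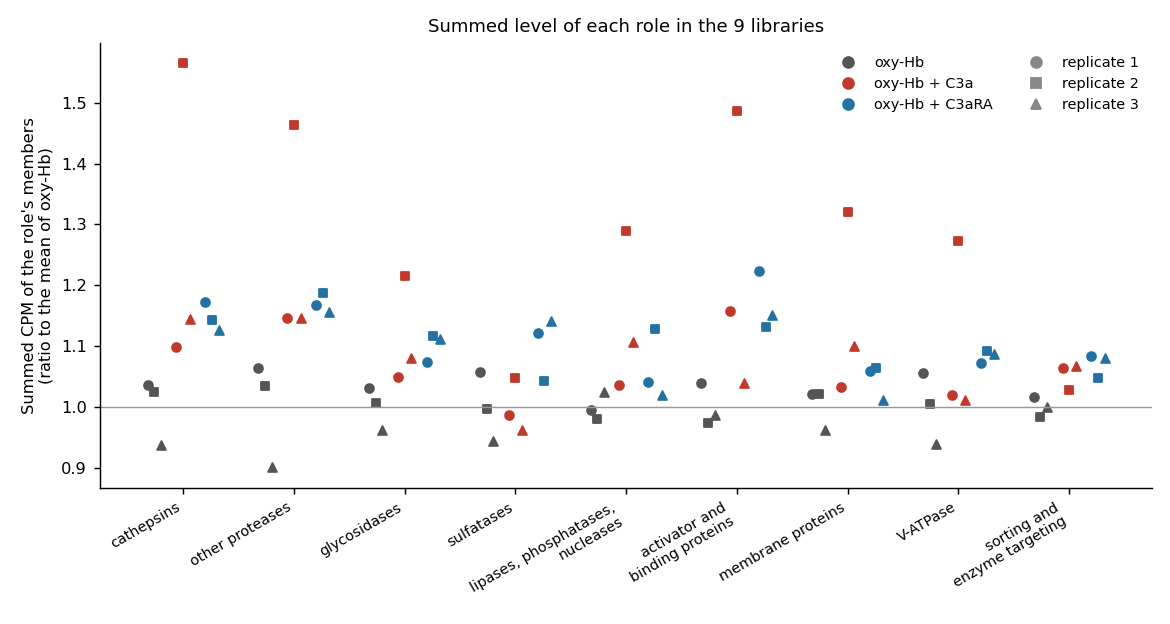
Summed CPM of the members of each role in each library, divided by the mean of the 3 oxy-Hb libraries (the vertical axis does not start at 0); colour is the group and symbol the replicate number. C3a replicate 2 is the highest library in 7 of the 9 roles, and for cathepsins it reaches 10300 CPM against 7230 and 7530 CPM in the other C3a libraries.

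How many members passed the test with C3a depended on how the counts were handled. With per-library corrections for transcript length and GC content, 17 members were called, 15 higher and 2 lower, against 6.93% of all tested genes (4.64% higher and 2.29% lower), and the correction also moved the median of all genes from 0.00 to 0.10 and that of the members from 0.14 to 0.19. The 15 were Tpp1, Sumf1, Hexa, Gusb, Cltb, Lgmn, Ctsz, Ap1s1, Atp6v0d1, Glb1, Psap, Ctsa, Ctsk, Cd63 and Ctsd, which include 6 proteases. Without C3a replicate 2, 12 members were called, 6 higher (Tpp1, Gusb, Cd63, Ctsa, Ctsk and Cd164) and 6 lower (among them Mcoln1, Gga3, Idua, Gga1 and Laptm5), against 9.55% of all genes (4.0% higher and 5.55% lower). With both changes together, a choice made after seeing the data, 25 were called, 22 of them higher, against 11.5% (8.31% higher and 3.14% lower), at a median of 0.12 against 0.06 for all genes. Without C3a replicate 1, 22 were called, 18 of them higher, against 11.2% (5.11% higher and 6.1% lower). The DESeq2 Wald test called 13, 9 of them higher, against 9.52% (3.46% higher and 6.05% lower). The authors' deposited table gave Mcoln1 and Gga3 alone, 2 of 112 (1.79%) against 2.21% of the 22935 genes it lists, untested ones included.

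**Figure D5:**
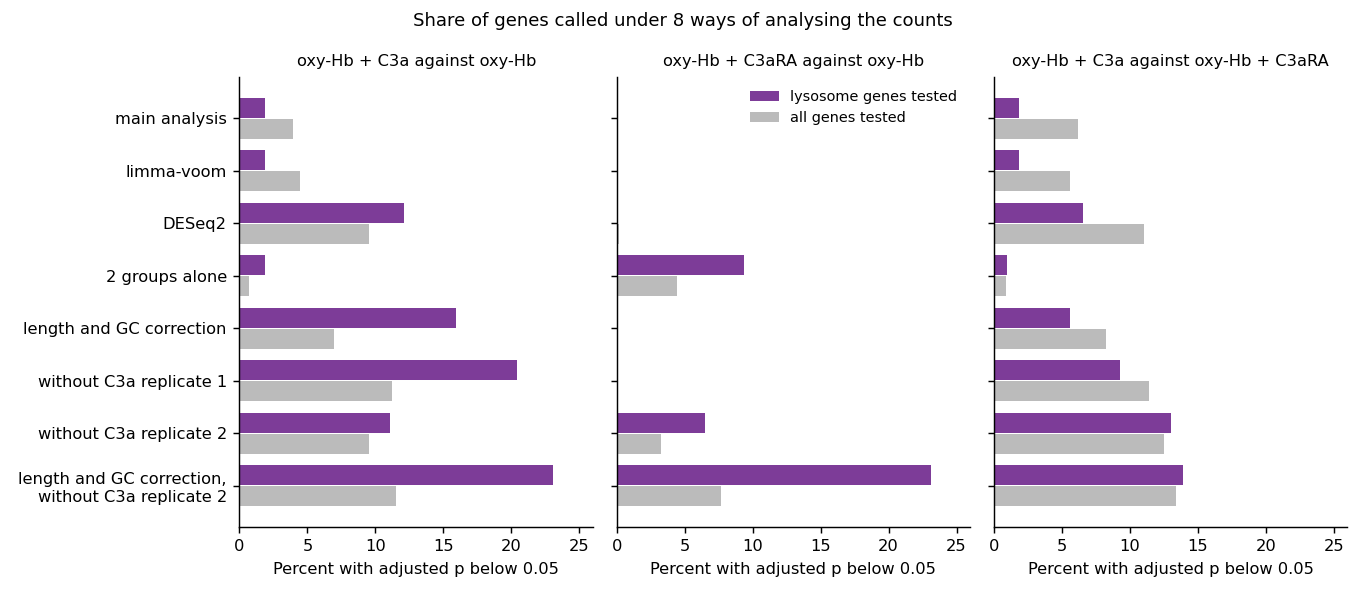
Percent of the tested lysosome genes (purple) and of all tested genes (grey) with an adjusted p below 0.05 under 8 ways of analysing the same counts, for the 3 comparisons. With C3a against oxy-Hb the members' share runs from 1.87% to 23.1%, and with C3aRA against oxy-Hb it is 0.0% in 5 of the 8.

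Added C3aRA was followed by no called change in lysosome genes, with somewhat higher values of many enzymes. The edgeR test called 0 of 107 members, as it called 0.0% of all tested genes (lowest member adjusted p = 0.467), and DESeq2 and limma-voom also called 0 members. At an unadjusted p below 0.05 there were 13 members (12.1%), against 8.15% of all tested genes. The median was 0.09 against -0.01 for all tested genes, and 79 members had positive and 28 negative values (73.8% positive against 48.0%). Every C3aRA library was above every oxy-Hb library in 32 members (29.9%) against 11.9% of all tested genes, and below in 9 (8.41%) against 11.0%. This comparison shares its oxy-Hb libraries with that of C3a, and oxy-Hb replicate 3, the lowest library for many members, enters both. Without that library the median with C3aRA was 0.06 against -0.01 for all genes.

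The 12 tested cathepsins all had positive values with C3aRA, between 0.03 and 0.29. Ctsb had 2720, 2670 and 2300 CPM with oxy-Hb and 3210, 3150 and 3040 CPM with C3aRA. The groups did not overlap, and the log2 fold change was 0.29 ± 0.12 (edgeR adjusted p = 0.565). All 4 activator and binding proteins were higher in every C3aRA library than in any oxy-Hb library, at log2 fold changes of 0.20 to 0.28. Over all tested genes this held for 11.9%. For Npc2, levels were 815, 755 and 823 CPM with oxy-Hb and 983, 905 and 919 CPM with C3aRA (0.23).

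Glycosidases had a median of 0.08 with C3aRA. Of the 17, 7 were above oxy-Hb without overlap (among them Galc, Glb1, Hexa, Man2b1, Manba and Naglu), as were 11.9% of all tested genes. Manba, beta-mannosidase, had 117, 119 and 118 CPM with oxy-Hb, 134, 126 and 147 CPM with C3a, and 138, 148 and 142 CPM with C3aRA. Both additions were above oxy-Hb and overlapped each other. The log2 fold change of Manba was 0.27 ± 0.10 with C3aRA (edgeR adjusted p = 0.504) and 0.20 ± 0.10 with C3a (edgeR adjusted p = 0.223). Hexa, a hydrolase of gangliosides, had 223, 210 and 201 CPM with oxy-Hb and 245, 249 and 262 CPM with C3aRA, without overlap, at 0.26 ± 0.13 (edgeR adjusted p = 0.623).

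Atp6v0d2, the V0 subunit isoform known from macrophages and osteoclasts, had the largest positive value with C3aRA. It had 78.0, 65.5 and 64.4 CPM with oxy-Hb, 89.5, 75.5 and 60.2 CPM with C3a, and 114, 97.6 and 100 CPM with C3aRA. The 3 C3aRA libraries were above the other 6, while oxy-Hb and C3a overlapped. The log2 fold change was 0.59 ± 0.14 against oxy-Hb (edgeR adjusted p = 0.467), from 69.3 ± 7.56 to 104 ± 8.82 CPM (SD, n = 3). With C3a against C3aRA it was -0.47 ± 0.14 (edgeR adjusted p = 0.0608). Among other V-ATPase members, Atp6v0a2 was lower in every C3aRA library (18.7, 19.3 and 22.1 CPM against 13.4, 15.4 and 15.6 CPM).

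Among membrane proteins 11 values were positive and 7 negative with C3aRA. Cln3, mutated in juvenile Batten disease, had 37.9, 34.0 and 31.4 CPM with oxy-Hb and 22.9, 27.2 and 27.5 CPM with C3aRA. The groups did not overlap, at -0.41 ± 0.14 (edgeR adjusted p = 0.490), and Cln3 overlaps Apobr on the opposite strand. Of the sorting proteins, Ap3b1 of the AP-3 adaptor had 229, 203 and 210 CPM with oxy-Hb and 258, 249 and 253 CPM with C3aRA (0.24, edgeR adjusted p = 0.605).

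The absence of calls with C3aRA also depended on C3a replicate 2, which is in neither group of this comparison but enters the shared estimate of the spread. Without it edgeR called 7 members, all higher (among them Ap3b1, Lgmn, Hexa, Manba, Ctsb and Atp6v0d2), 6.48% of those tested against 3.25% of all genes (1.88% higher and 1.38% lower). The fold changes themselves were the same to 2 decimals, Atp6v0d2 being at 0.59 ± 0.12 (edgeR adjusted p = 0.00994) and Ctsb at 0.29 ± 0.07 (edgeR adjusted p = 0.0132). Fitted with oxy-Hb alone, C3aRA gave 10 called members, the same 7 with Npc2 and Gm2a higher and Cln3 lower, against 4.43% (2.48% higher and 1.94% lower). With the length and GC correction and without C3a replicate 2 there were 25, 24 of them higher, against 7.64% (6.19% higher and 1.45% lower). The authors' deposited table called 16 of 112 members (14.3%), 15 higher and Cln3 lower, against 3.12% of its genes. Its genes are all 22935 listed, of which 14146 were tested here, as were 107 of the 112 members. In that table the adjusted p was 2.27e-06 for Atp6v0d2 and 0.000658 for Ctsb.

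Set directly against C3aRA, C3a gave 2 called members, Mcoln1 and Gga3, both lower, against 6.19% of all tested genes called, 3.32% lower and 2.87% higher. The median of the members was 0.04 against 0.01 for all. Every C3a library was above every C3aRA library in 11 members (10.3%) against 14.1% of all genes, and below in 15 (14.0%) against 14.7%, so the members' shares here were near or under the background. At an unadjusted p below 0.05 there were 24 members (22.4%) against 24.2%. The sulfatases had the lowest median (-0.18) and cathepsins and V-ATPase subunits had 0.16 each, but 0.04 and -0.03 without C3a replicate 2. Without C3a replicate 2, 14 members were called, 3 higher (Cd63, Cd164 and Ap1s1) and 11 lower, against 12.5% (5.97% higher and 6.54% lower), and the median was -0.04. Among the 11 were Mcoln1, Idua, Gga3, Atp6v0d2, Pla2g15, Gga1, Npc1, Slc11a2, Galc and Arsg. The direction of the members' median between C3a and C3aRA therefore rested on that library. Without any 1 C3aRA library, Mcoln1 was the only member called.

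Lysosomal genes outside the pathway term were taken from lists of regulators and partners, 55 of 64 genes being tested. With C3a 4 of the 55 fell and 1 rose, where 3.04% of all tested genes were called lower and 0.905% higher (3.94% in either direction). Clcn7, the lysosomal chloride-proton exchanger, had 79.4, 66.9 and 67.6 CPM with oxy-Hb and 46.3, 41.0 and 46.9 CPM with C3a, and fell by 0.67 on the log2 scale (edgeR adjusted p = 0.00562). Plekhm2, which links lysosomes to kinesin, fell by 0.77 (edgeR adjusted p = 0.00878), and its relative Plekhm1 by 0.54 (edgeR adjusted p = 0.0120). Slc38a9, the arginine sensor upstream of mTORC1, fell by 0.44 (edgeR adjusted p = 0.0456), and Rab7, the small GTPase of late endosomes, rose by 0.43 (edgeR adjusted p = 0.0290). In the 5 genes no C3a library overlapped an oxy-Hb library, but they were named for their calls in these same libraries. Of all tested genes 13.2% were higher and 14.6% lower without overlap.

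These calls were less stable than those of the 2 members. Clcn7 was called in 8 of 9 leave-one-out fits, Plekhm1 and Plekhm2 in 7 each, and Rab7 and Slc38a9 in 2 each. With the length and GC correction, Plekhm1 and Slc38a9 moved to -0.21 and -0.16 and were no longer called. Against C3aRA, Plekhm2 (-0.56), Slc38a9 (-0.49) and Clcn7 (-0.44) were lower and Sppl2a, an intramembrane protease, higher (0.37) with C3a. In that comparison 3.32% of all tested genes were called lower and 2.87% higher. Each of these genes lost its call without at least 4 of the 9 libraries in turn. With C3aRA against oxy-Hb 0 of the 55 were called by edgeR.

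Of the 4 listed TFEB-type factors, 3 were tested (Tfeb, Tfe3 and Mitf), and none passed the test in any of the 3 comparisons. Tfeb had 7.61, 7.67 and 8.18 CPM with oxy-Hb, 7.52, 7.08 and 7.27 CPM with C3a and 4.48, 7.42 and 7.80 CPM with C3aRA. Tfe3 had 23.1, 28.2 and 25.0 CPM with oxy-Hb and 19.0, 21.4 and 17.0 CPM with C3a, lower without overlap, at -0.41 ± 0.14 (edgeR adjusted p = 0.0980). Mitf had 65.1, 62.2 and 64.2 CPM with oxy-Hb, 77.5, 56.1 and 71.3 CPM with C3a, and 71.2, 69.7 and 75.4 CPM with C3aRA. Its C3aRA libraries were all above oxy-Hb, at a log2 fold change of 0.18 ± 0.12 (edgeR adjusted p = 0.737), while C3a overlapped both. Of the 10 members with the core, Mcoln1 had the only value called by the edgeR test of all 9 libraries. Under alternatives others were called, among them Ctsa, Ctsd, Cd164, Sumf1 and Atp6v0d1. Single alternatives called up to 11.5% of all tested genes with C3a against oxy-Hb. Of the 10, 8 had positive values with C3a, and Mcoln1 and Cln3 negative ones. Positive values were found in 63.6% of all tested members and 50.2% of all tested genes. Any part of the core in this was not tested. The 10 tested V1 and other V-ATPase subunits, 3 cystatins and 8 HOPS and CORVET tethering genes had no call in any comparison by edgeR.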

How the data were processed

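Counts of 9 libraries were analysed from 2 tables that the authors deposited, each with raw read counts per Ensembl gene. The authors' tables also hold log2 fold changes and adjusted p-values, deposited without a stated method. Per the submitters' processing notes the build was GRCm38 (mm10). Which aligner, counting tool and strand setting were used was not given in the sources used here. Oxy-Hb counts were the same in both tables (0 values differed), so the tables were joined. 9 symbols turned into dates were restored from identifiers. Members and gene lists were chosen with earlier results of these data known.

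Genes were kept by filterByExpr (minimum count 10), scaled with TMM and tested with edgeR 4.0.16 in R 4.3.3 (robust quasi-likelihood F test, 1 coefficient per group, Benjamini-Hochberg over 14146 genes, two-sided, threshold 0.05). CPM are TMM-scaled, errors of log2 fold changes are SEs, and the biological coefficient of variation was 15.8%. Alternatives were limma-voom 3.58.1, DESeq2 1.42.0, other scaling, no count filter, 2 groups alone, a replicate block, leaving out each library, and splines (4 degrees of freedom) on transcript length and GC content from GENCODE M21. The tests were checked on simulated counts. Between replicates the mean chi-square per gene was 5.26 or more (57.6 and 64.0 for C3a replicate 2), so no 2 libraries agreed within sampling noise. Genes named are those called, up to 5 in each direction with the lowest p per comparison where fewer than 10 were called, a panel of lysosomal genes, and the highest per role per kilobase. Ctsa, Tpp1 and others named for calls under an alternative were chosen after their values were seen. Values of some members are not reported here, though counts and medians include them.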

Additional observations from a re-analysis of the deposited data

How the results depend on the processing

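The counts of called members in the C3a comparisons changed by over 1.5 times under several alternatives. In brackets below, the share of the members tested is set against that of all genes tested. With C3a against oxy-Hb 2 were called (1.87% against 3.94%). Total count scaling gave 5 (4.67% against 4.93%), no count filter 4 (3.6% against 4.58%) and DESeq2 13 (12.1% against 9.52%). The length and GC correction gave 17 (15.9% against 6.93%). That correction without C3a replicate 2, chosen after seeing the data, gave 25 (23.1% against 11.5%). With C3aRA against oxy-Hb (0 called, 0.0% against 0.0%), no count filter gave 1 (0.901% against 0.0355%) and the 2 groups alone 10 (9.35% against 4.43%). The correction without C3a replicate 2 gave 25 (23.1% against 7.64%). With C3a against C3aRA 2 were called (1.87% against 6.19%), and 5 without a filter (4.5% against 5.75%). DESeq2 gave 7 (6.54% against 11.0%), and the 2 groups alone 1 (0.935% against 0.875%). The correction gave 6 (5.61% against 8.24%), and with no C3a replicate 2 it gave 15 (13.9% against 13.4%). Leaving out each library in turn gave 2 to 22, 0 to 7 and 1 to 14 called members in the 3 comparisons. Of all genes it called 0.37% to 11.2%, 0.0% to 3.25% and 0.361% to 12.5%. Total count scaling moved the members' median with C3a to 0.05 while the median of all genes moved to -0.09. Tcirg1 with C3a changed sign, to 0.02, under the correction without C3a replicate 2. The cause of these changes was not tested. A replicate block gave 2, 0 and 4 called members, against 5.9%, 0.0% and 8.55% of all genes. With the length and GC correction it gave 18, 0 and 8, against 10.7%, 0.00707% and 10.6%. Replicate numbers do not pair the samples by the labels, and same-numbered libraries correlated at -0.0405 to 0.170 in their deviations, above 0.1 in 2 of 9 pairs. Keeping the gene whose symbol begins with Abc changed no count by over 1.5 times. Depth limits the low members: with 3 counts in a library worth 0.146 to 0.232 CPM, Ctsg and the other untested members cannot be compared.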
